A study of Mus musculus with 12 samples.

Results

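Open chromatin of mouse forebrain cells was examined at 10 genes of the antioxidant and iron handling pathways: the regulator gene Nfe2l2, which encodes the transcription factor NRF2, its antioxidant targets Hmox1, Slc7a11, Gclm, Txnrd1 and Nqo1, and the iron genes Fth1, Ftl1, Slc40a1 and Tfrc. Every peak of open chromatin for which the deposited tables name one of these 10 genes as the nearest gene was taken, which gave 237 of 281974 peaks. Microglia contributed 107 of 91770 peaks, NeuN+ nuclei 51 of 107627, and Olig2+ nuclei 79 of 82577. The same peaks were found by gene symbol and by Entrez number. The assay was ATAC-seq, which tags accessible DNA with sequencing adapters by means of a transposase. The brains came from C57BL/6 mice aged 4 months. WT mice were compared with SgshKO mice, which lack the lysosomal enzyme that the gene Sgsh encodes, a sulfatase needed to break down heparan sulfate. Live microglia were sorted for CD11b, low CD45 and CX3CR1, while neuronal nuclei (NeuN+, Olig2-, PU.1-) and oligodendrocyte-lineage nuclei (Olig2+, NeuN-, PU.1-) were sorted after light fixation. With 2 libraries per genotype and sort, there are 6 groups of n = 2. The labels do not say how the Sgsh allele was made, how many mice went into a library, whether libraries of 1 number share an animal, or which of the 2 sequencer models they name read which library, so that p-values measure only the spread between these libraries.

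NRF2 is held at a low level by KEAP1 and CUL3, which mark it for degradation. Under oxidative stress it escapes, pairs with a small MAF protein and binds antioxidant response elements near genes for glutathione synthesis, thioredoxin reduction, quinone detoxification and heme breakdown; BACH1 competes for the same elements. Iron enters cells through the transferrin receptor (Tfrc), is stored in a shell of ferritin heavy and light chains (Fth1, Ftl1) and leaves through ferroportin (Slc40a1). Microglia and oligodendrocytes are the main iron-storing cells of the brain.

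The sequences just upstream of 4 members are shown: those of Nfe2l2, Gclm and Txnrd1 because they hold a match to the antioxidant response element, and that of Tfrc, without a match, because its start-site peak, like that of Nfe2l2, was called higher in SgshKO microglia. The windows of Fth1 and Ftl1, whose start-site peaks were called lower in 1 and 2 sorts, hold no match and are not shown. They are the 250 bases before the start site, from RefSeq on GRCm38.p6, 5' to 3' on the gene's strand, in lower case, with matches to the core of the antioxidant response element in capitals. Nfe2l2 lies on the minus strand (chr2:75704664-75704913), and Gclm (chr3:122245307-122245556), Txnrd1 (chr10:82858956-82859205) and Tfrc (chr16:32608646-32608895) lie on the plus strand.
Nfe2l2: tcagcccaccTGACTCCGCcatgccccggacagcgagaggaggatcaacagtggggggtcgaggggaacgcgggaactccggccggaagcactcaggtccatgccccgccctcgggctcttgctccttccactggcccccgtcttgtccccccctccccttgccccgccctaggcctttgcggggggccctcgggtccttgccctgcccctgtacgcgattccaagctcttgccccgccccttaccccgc
Gclm: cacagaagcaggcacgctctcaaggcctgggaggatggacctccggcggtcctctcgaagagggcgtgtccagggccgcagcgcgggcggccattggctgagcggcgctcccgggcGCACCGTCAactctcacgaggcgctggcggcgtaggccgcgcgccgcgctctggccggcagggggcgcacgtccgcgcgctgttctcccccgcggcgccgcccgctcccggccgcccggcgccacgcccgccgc
Txnrd1: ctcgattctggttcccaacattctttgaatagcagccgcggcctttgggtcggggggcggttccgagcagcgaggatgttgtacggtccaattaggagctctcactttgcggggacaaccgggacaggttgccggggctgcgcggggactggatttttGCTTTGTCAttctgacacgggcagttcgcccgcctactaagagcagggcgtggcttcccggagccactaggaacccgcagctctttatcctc
Tfrc: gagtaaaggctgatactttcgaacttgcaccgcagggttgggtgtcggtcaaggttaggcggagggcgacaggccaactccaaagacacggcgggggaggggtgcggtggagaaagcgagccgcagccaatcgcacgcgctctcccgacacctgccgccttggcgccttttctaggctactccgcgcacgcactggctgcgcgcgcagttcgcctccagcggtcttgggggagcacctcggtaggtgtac
The element was searched as TGACNNNGC on both strands. The match in Nfe2l2 (TGACTCCGC) lies 232 to 240 bases before the start site and is on the gene's strand. Those in Gclm (GCACCGTCA, 126 to 134 bases before) and Txnrd1 (GCTTTGTCA, 84 to 92 bases before) read as the element on the opposite strand. Tfrc has no match in this window. Over 32851 such windows of all genes, 10.2% hold the element, and 3 of the 12 windows of the 8 members with an entry do. The AP-1 site TGANTCA, which can overlap the element, is in 6.75% of all windows and the E-box CACGTG in 6.02%; neither is in a window of a member. A match is a description of the letters and not of binding. In microglia the start-site peaks covered 61 of these bases in Nfe2l2, 210 in Gclm, 156 in Txnrd1 and 85 in Tfrc, so that the Nfe2l2 match lies outside its peak.

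Values are tags per peak, scaled by the authors so that each library totals 10000000 tags, and are called normalized tags below. Depth ran from 10771659 to 11804222 tags per microglia library, from 14326703 to 17706971 per NeuN+ library and from 15044194 to 19555924 per Olig2+ library, and the median peak held 17 to 39 reads. Tags falling in peaks made up 55.8% and 48.7% of the WT and 67.4% and 53.7% of the SgshKO microglia libraries. For NeuN+ nuclei these shares were 26.7% and 25.9% (WT) against 21.5% and 21.2% (SgshKO), and for Olig2+ nuclei they ran from 30.9% to 31.8%. Marker genes with a peak near the start site were as follows: the microglia table had peaks at 6 of 6 microglial markers, the NeuN+ table at 6 of 6 neuronal markers, and the Olig2+ table at 6 of 6 oligodendrocyte and 4 of 4 precursor markers. Markers of other cell types had peaks too. The microglia table had them at 1 of 6 neuronal markers (not at Rbfox3 or Snap25), 3 of 6 oligodendrocyte, 1 of 4 precursor, 2 of 5 astrocyte and 2 of 4 endothelial markers, the NeuN+ table at 3 of 6 oligodendrocyte and 1 of 4 precursor markers and at no astrocyte, endothelial or blood myeloid marker, and the Olig2+ table at 3 of 6 neuronal and 1 of 5 astrocyte markers. The NeuN+ and Olig2+ tables each also had peaks at 1 of 6 microglial markers, and the microglia table at 2 of 5 blood myeloid and 1 of 5 erythroid markers.

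The genotype difference of each peak was tested with limma on log2(normalized tags + 1), with p-values adjusted over the whole table, and a peak was called at an adjusted p under 0.05. The peak set of each sort is named for both genotypes together. A peak with few reads in 1 genotype may thus be listed only because it was high in the other. Its difference is then partly a product of that selection, which was not tested. In microglia 5 member peaks were called, all of them higher in SgshKO: the start-site peaks of Nfe2l2 and Tfrc, a second peak near the Nqo1 start, and distal peaks of Nfe2l2 and Slc7a11. The 5 are 4.67% of the 107 peaks, against 7.37% of all microglia peaks (5.05% higher, 2.33% lower), so that the members were not called more often than other peaks. Of the member peaks within 1000 bp of a start site 3 of 21 were called higher and 0 lower, against 8.59% and 1.20% of all such peaks. The median log2 difference was 0.09 over the member peaks and -0.08 over all peaks.

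In NeuN+ nuclei 14 member peaks were called, 6 higher and 8 lower, which is 27.5% of 51 against 29.8% of all peaks (10.2% higher, 19.6% lower). The 6 increases were 5 distal Slc7a11 peaks and 1 peak inside Ftl1, and 6 of the 8 decreases were start-site peaks. Near start sites 6 of 13 member peaks were lower, where 44.9% of all such peaks were lower and 1.74% higher. The median log2 difference of all NeuN+ start-site peaks was -0.53, so a start-site decrease of that size is shared with the table as a whole. In Olig2+ nuclei 19 member peaks were called, 3 higher and 16 lower, or 24.1% of 79 against 19.8% of all peaks (8.17% higher, 11.7% lower). Of the 16 decreases 8 were nearest Fth1, which held 43 of the 79 peaks. Near start sites 1 of 17 member peaks was higher and 2 were lower, against 12.7% and 7.56% of all such peaks.

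**Figure D1:**
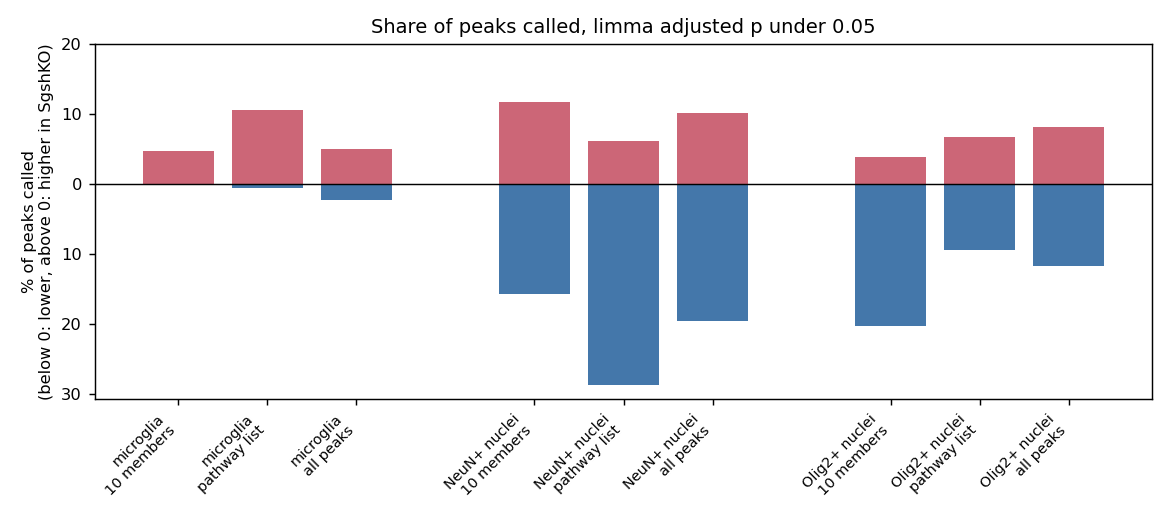
Share of peaks called at a limma adjusted p under 0.05, in percent, for the 10 members, a list of 60 other pathway genes and all peaks in each sort; bars above 0 are peaks higher in SgshKO and bars below 0 are peaks lower. The members' share in microglia is 4.67% against 7.37% of all peaks, and the decreases in NeuN+ nuclei are common in all 3 sets.

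These counts moved with single libraries and with scaling. In microglia limma called 0 member peaks without WT replicate 1 (7 at an unadjusted p under 0.05; edgeR and DESeq2 were not run without a library), 1 without WT replicate 2, 8 higher and 5 lower without SgshKO replicate 1, and 11 higher and 2 lower without SgshKO replicate 2; scaling to the tags inside peaks gave 5 higher and 2 lower. For NeuN+ nuclei, leaving out either SgshKO library left 0 calls in the whole table with limma (13 and 14 member peaks at an unadjusted p under 0.05); the split was 6 higher and 5 lower after median-of-ratios scaling, 6 and 3 after scaling to tags inside peaks and 5 and 1 after quantile normalization, which moved the median of all peaks from -0.23 to -0.03, 0.05 and -0.08. In Olig2+ nuclei the calls fell to 1 higher and 6 lower without WT replicate 1 and 2 higher and 8 lower without WT replicate 2. Since each sort is a bulk sample, more cells with an open site and a more open site per cell cannot be told apart.

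**Figure D2:**
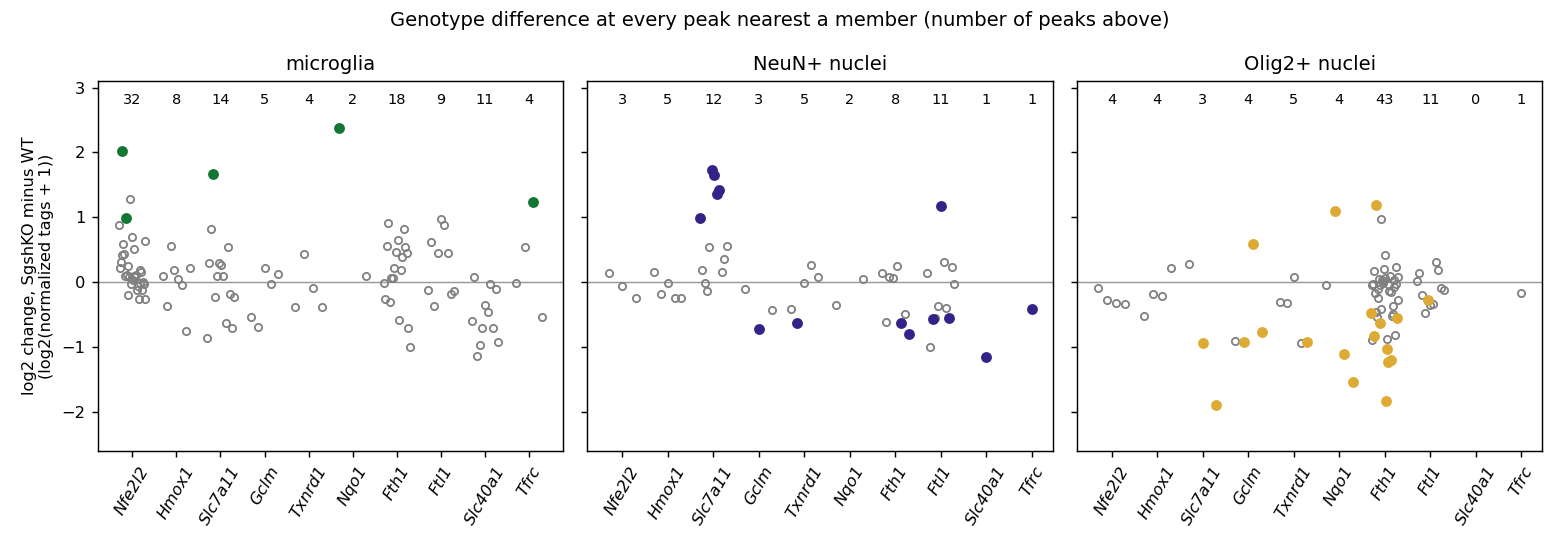
Genotype difference (log2, SgshKO minus WT) of each of the 237 peaks nearest a member, by gene and sort, with the number of peaks above each gene; filled points are called at a limma adjusted p under 0.05. In microglia the filled points all lie above 0, in NeuN+ nuclei 5 of the 6 filled points above 0 are Slc7a11, and in Olig2+ nuclei 8 of the 16 below 0 are Fth1. Fth1 holds 43 of the 79 Olig2+ peaks.

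Nfe2l2, the gene of the NRF2 regulator itself, had 32 microglia peaks, 3 NeuN+ peaks and 4 Olig2+ peaks. The start-site peak there (chr2:75704518-75704724, centre 42 bp inside the gene) held 578 and 502 normalized tags in WT and 1061 and 1095 in SgshKO, and was the highest of all 107 member peaks of the table. Both SgshKO libraries lay above both WT libraries, a log2 difference of 1.00 ± 0.23 (SE; adjusted p = 0.00554). A small intergenic peak 29701 bp upstream (chr2:75734259-75734469) rose from 3.46 and 3.39 to 16.5 and 17.6 normalized tags, from 4 reads in each WT library to 19 in each SgshKO library, a log2 difference of 2.03 ± 0.51 (adjusted p = 0.00978). With so few WT reads, this small peak may be listed only through SgshKO. The other 30 microglia peaks of Nfe2l2 were not called. An intronic peak 21534 bp into the gene, with 217 and 186 normalized tags in WT and 321 and 304 in SgshKO (adjusted p = 0.144), and a peak 58815 bp upstream, with 106 and 70.3 against 183 and 140 (adjusted p = 0.0696), did not overlap between genotypes but missed the threshold; both were singled out after their values were seen. Summed over the 32 peaks, the signal was 3294 and 2991 (WT) against 4441 and 3838 (SgshKO).

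The call at the Nfe2l2 start site was lost after quantile normalization (log2 difference 0.33, adjusted p = 0.131) and without WT replicate 1 (1.10, adjusted p = 0.107) or WT replicate 2 (0.90, adjusted p = 0.404), and edgeR and DESeq2 made it (adjusted p = 0.000545 and 0.000291). The distal call was lost with DESeq2 (adjusted p = 0.0786) and without either WT library (adjusted p = 0.246 and 0.389). Summed tags near the 2 blood myeloid markers that had peaks (of 5 listed; Ccr2, Ly6c2 and S100a9 had none) came to 79.5 and 73.7 for WT and 186 and 89.1 for SgshKO microglia, and those near microglial markers were 1543 and 1336 against 1764 and 1325. Those near oligodendrocyte markers were 270 and 239 against 353 and 300, and those near precursor markers 108 and 78.8 against 52.0 and 48.3, both without overlap; their part in the microglia results was not tested.

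Outside microglia Nfe2l2 differed in which peaks were present. In Olig2+ nuclei the start-site peak (chr2:75704480-75704711) held 139 and 147 normalized tags in WT and 116 and 121 in SgshKO. Both SgshKO values were the lower ones, but the log2 difference of -0.27 ± 0.11 was not called (adjusted p = 0.0834). The NeuN+ table held no Nfe2l2 start-site peak, and its 3 peaks lay 25702 to 57594 bp upstream with mean values from 7.72 to 13.3 normalized tags; a peak missing from a table was not measured there. Of the 32 microglia peaks 27 overlapped no peak of either other table by at least 1 bp, which is 84.4% against 60.2% of all microglia peaks.

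**Figure D3:**
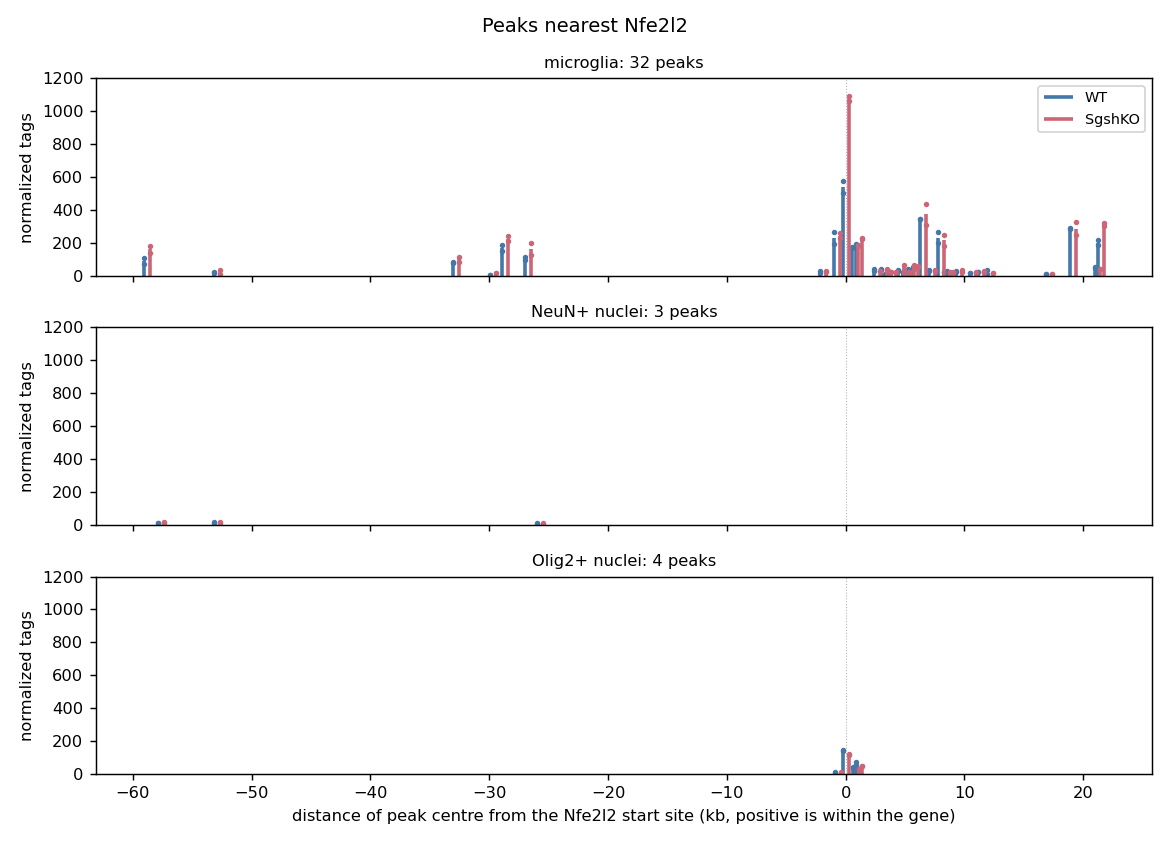
Normalized tags of each peak nearest Nfe2l2 by distance of the peak centre from the start site (kb, positive within the gene), in the 3 sorts; bars are means, drawn side by side for WT and SgshKO, and points the 2 libraries of a group. The start-site bars in microglia reach 540 in WT and 1078 in SgshKO, while NeuN+ nuclei have 3 low upstream peaks.

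Hmox1 encodes the heme oxygenase that cuts heme and sets its iron free. None of its 8 microglia, 5 NeuN+ and 4 Olig2+ peaks was called between genotypes by limma. At the start site in microglia (chr8:75093531-75093756) the values were 230 and 189 normalized tags in WT and 246 and 242 in SgshKO, a log2 difference of 0.23 ± 0.27 (adjusted p = 0.671), although the groups did not overlap. The NeuN+ values were 39.7 and 42.9 against 35.6 and 33.7 (log2 difference -0.25 ± 0.18), and the Olig2+ values 53.9 and 51.1 against 62.1 and 61.2 (0.23 ± 0.16). Groups did not overlap there either, and with adjusted p = 0.307 and 0.322 neither was called. The level of this peak differed between sorts. Over the WT libraries it was higher in microglia than in NeuN+ nuclei by 2.31 ± 0.17 on the log2 scale and higher than in Olig2+ nuclei by 1.97 ± 0.17 (adjusted p = 4.35e-11 and 5.26e-10), and both stayed called after scaling to tags inside peaks (1.34 and 1.26). Microglia were sorted live and both kinds of nuclei after fixation, so that cell type and preparation cannot be told apart here.

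Slc7a11, the cystine importer that feeds glutathione synthesis, had peaks that no sort shared: none of its 14 microglia, 12 NeuN+ and 3 Olig2+ peaks overlapped a peak of another table. Of all peaks in these sorts, 60.2%, 59.9% and 51.2% overlapped none either. Its start site had a peak in microglia only (chr3:50443446-50443739), with 40.6 and 28.8 normalized tags in WT and 37.2 and 36.2 in SgshKO, and the groups overlapped (log2 difference 0.10 ± 0.38, adjusted p = 0.913). One distal microglia peak, 164359 bp upstream (chr3:50607856-50608088), was called: 14.7 and 5.93 normalized tags in WT against 32.9 and 31.6 in SgshKO, or 17 and 7 reads against 38 and 34, a log2 difference of 1.67 ± 0.46 (adjusted p = 0.0199). Its call was lost with DESeq2 (adjusted p = 0.0640) and without WT replicate 1 (log2 difference 2.26, adjusted p = 0.0528) or WT replicate 2 (1.08, adjusted p = 0.745).

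In NeuN+ nuclei 5 of the 12 intergenic peaks nearest Slc7a11 rose in SgshKO, 41.7% of them, where 10.2% of all NeuN+ peaks were higher. All 12 lay more than 1000 bp from a start site, and of all such NeuN+ peaks 10601 of 84230 were higher, a somewhat larger share. The strongest signal was 18787 bp upstream (chr3:50462250-50462550), at 13.03 and 14.7 normalized tags in WT and 38.4 and 35.6 in SgshKO, a log2 difference of 1.36 ± 0.22 (adjusted p = 0.000287). Peaks 169560 and 208825 bp upstream (chr3:50613059-50613287 and chr3:50652311-50652566) rose from 5.10 and 2.26 to 11.2 and 15.2 and from 3.40 and 2.82 to 11.9 and 13.3 normalized tags, log2 differences of 1.66 ± 0.37 and 1.73 ± 0.34 (adjusted p = 0.00332 and 0.00138). A peak 163645 bp to the downstream side (chr3:50279859-50280078) rose from 2.27 and 1.69 to 6.98 in both SgshKO libraries (log2 difference 1.43 ± 0.39, adjusted p = 0.0117). At all 4 sites both SgshKO libraries were the higher ones, at 3 to 26 reads per WT library and 10 to 56 per SgshKO library. Sites with few WT reads may be listed only through SgshKO. DESeq2 kept the calls 18787 and 208825 bp upstream and lost the other 2 (adjusted p = 0.0669 and 0.236). The peak 163645 bp to the downstream side also lost its call without either WT library (adjusted p = 0.0864 and 0.115), and the one 169560 bp upstream without WT replicate 2 (0.0537). The fifth called peak, 382140 bp upstream, had a log2 difference of 0.99 ± 0.33 (adjusted p = 0.0318). These 12 peaks lie up to 382140 bp from the start site, so the gene name states the nearest annotated start and no more.

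Olig2+ nuclei had 3 Slc7a11 peaks, of which 2 fell. The one 160938 bp to the downstream side (chr3:50282572-50282779) may be listed only through WT. It went from 7.26 and 8.69 to 0.61 and 2.66 normalized tags, 14 and 17 reads against 1 and 4. The log2 difference was -1.88 ± 0.44 (adjusted p = 0.00283). The call was lost without either WT library (adjusted p = 0.145 and 0.218).

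Gclm, the modifier subunit of the first enzyme of glutathione synthesis, had opposite start-site differences in the 2 nuclei sorts. In Olig2+ nuclei (chr3:122245275-122245496) it rose from 185 and 170 to 262 and 271 normalized tags, a log2 difference of 0.58 ± 0.09 (adjusted p = 2.5e-05). In NeuN+ nuclei (chr3:122245277-122245494) it fell from 180 and 159 to 101 and 103, a log2 difference of -0.72 ± 0.11 (adjusted p = 0.000149), and it was the highest member peak of that table. In microglia (chr3:122245275-122245516) it held 264 and 212 in WT and 272 and 281 in SgshKO, groups that did not overlap (log2 difference 0.23 ± 0.26, adjusted p = 0.667). The Olig2+ increase was called under all alternatives run, with log2 differences from 0.52 to 0.65. The NeuN+ decrease was -0.15 after quantile normalization (adjusted p = 0.274) and missed the threshold with DESeq2 (adjusted p = 0.0604). A pair of other Olig2+ peaks was called lower, 52832 bp upstream and 7109 bp inside the gene in intron 1 of 6, with log2 differences of -0.92 ± 0.33 and -0.77 ± 0.24 (adjusted p = 0.0466 and 0.0257). The upstream one lay close to the threshold and was low, with 22 and 28 reads in WT and 12 and 8 in SgshKO.

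Txnrd1, the cytosolic thioredoxin reductase, fell at its start site in NeuN+ nuclei (chr10:82858986-82859301) from 87.8 and 87.5 to 54.4 and 59.1 normalized tags, a log2 difference of -0.62 ± 0.14 (adjusted p = 0.00339). In microglia (chr10:82859050-82859294) 143 and 125 in WT stood against 198 and 164 in SgshKO, with the SgshKO libraries above the WT ones (log2 difference 0.43 ± 0.28, adjusted p = 0.392). In Olig2+ nuclei (chr10:82858990-82859252) 59.1 and 42.4 in WT and 44.9 and 62.5 in SgshKO overlapped (0.08 ± 0.19, adjusted p = 0.798). The NeuN+ call was lost with DESeq2 (adjusted p = 0.370), after scaling to tags inside peaks (log2 difference -0.32, adjusted p = 0.0861), after quantile normalization (-0.15, adjusted p = 0.415) and without WT replicate 1 (-0.62, adjusted p = 0.0553). A smaller Olig2+ peak 553 bp into the gene fell from 20.8 and 21.99 to 11.1 and 10.6 normalized tags (-0.92 ± 0.27, adjusted p = 0.0168).

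Nqo1 encodes a quinone reductase that is a standard reporter of NRF2 activity. Its start-site peak was called in no sort: 68.3 and 49.1 against 71.0 and 54.8 normalized tags in microglia (chr8:107403081-107403346), 35.7 and 31.6 against 26.5 and 26.0 in NeuN+ nuclei and 33.7 and 35.8 against 32.6 and 35.2 in Olig2+ nuclei, with adjusted p = 0.896, 0.198 and 0.921 by limma. The groups overlapped in microglia and Olig2+ nuclei and did not in NeuN+ nuclei. A second microglia peak, centred 377 bp upstream (chr8:107403471-107403694), may be listed only through SgshKO. It held 0 and 7.62 normalized tags in WT and 15.6 and 13 in SgshKO, or 0 and 9 reads against 18 and 14. The log2 difference was 2.38 ± 0.64 (adjusted p = 0.0165). That value rests on WT replicate 1: without it the log2 difference was 0.82 (adjusted p = 0.860), and the call was also lost after scaling to tags inside peaks and by median of ratios (adjusted p = 0.0632 and 0.0525). In Olig2+ nuclei a peak in intron 5 of 5 of Nqo1, 13384 bp into the gene (chr8:107389650-107389993), rose from 5.71 and 3.07 to 9.84 and 10.6 normalized tags (log2 difference 1.10 ± 0.37, adjusted p = 0.0318). A peak 35818 bp to the downstream side, which lies in exon 14 of 16 of the neighbouring gene Nfat5 (chr8:107367226-107367549), fell from 7.78 and 9.72 to 1.23 and 3.99 (-1.54 ± 0.41, adjusted p = 0.00930). With 11 and 6 WT reads the intron 5 peak may be listed only through SgshKO. The exon 14 peak, with 2 and 6 SgshKO reads, may be listed only through WT. A second Nfat5 exon peak 35255 bp to the downstream side fell as well (-1.11 ± 0.32, adjusted p = 0.0148). The calls 13384 and 35818 bp away were lost without WT replicate 1 or WT replicate 2, and the one at 35818 bp also without SgshKO replicate 1 (adjusted p from 0.0534 to 0.289).

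**Figure D4:**
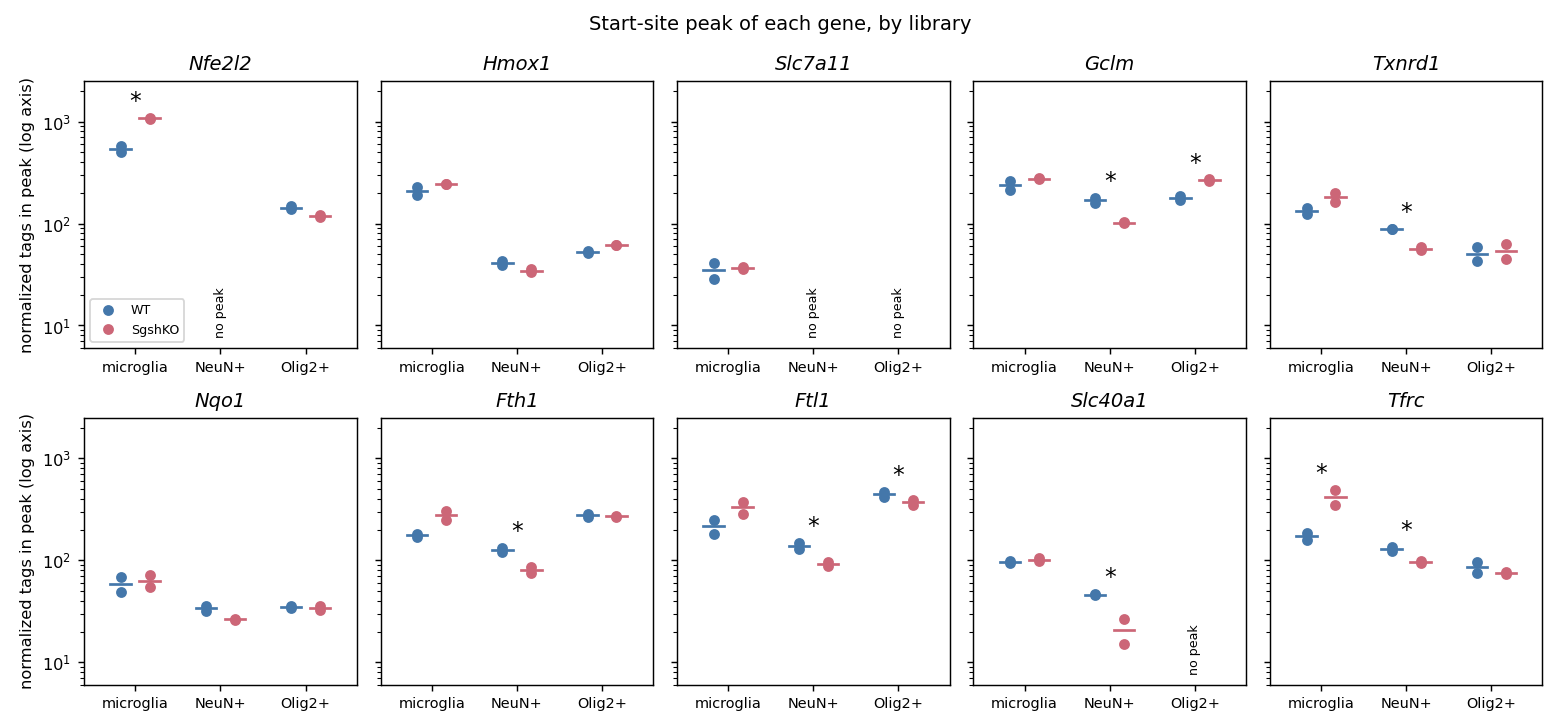
Normalized tags (log axis) of the start-site peak of each of the 10 genes in each sort; points are single libraries, lines group means, and stars limma adjusted p under 0.05. In microglia the SgshKO points of Nfe2l2 and Tfrc stand clear above the WT points, and in NeuN+ nuclei the SgshKO points lie below the WT points for all 8 genes with a peak. Of all NeuN+ peaks within 1000 bp of a start site 44.9% were called lower, with a median log2 difference of -0.53.

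Fth1, the ferritin heavy chain with the ferroxidase site, had 43 peaks in Olig2+ nuclei, 18 in microglia and 8 in NeuN+ nuclei; in Olig2+ nuclei 8 fell and 1 rose. These calls are 20.9% of the 43 peaks, against 19.8% of all Olig2+ peaks (8.17% higher, 11.7% lower). The start-site peak itself (chr19:9982511-9982728) held 268 and 286 normalized tags in WT and 271 and 267 in SgshKO and did not differ beyond the spread (log2 difference -0.04 ± 0.08, adjusted p = 0.755). Some peaks upstream of it did. Their distances, here and in the next paragraph, are counted from another annotated start of Fth1, at chr19:9980600. The one 1787 bp upstream (chr19:9978686-9978940) fell from 114 and 115 to 42.4 and 55.2, a log2 difference of -1.22 ± 0.15 (adjusted p = 6.67e-07), and stayed called under all alternatives run (-1.03 to -1.41). Another 19709 bp upstream (chr19:9960790-9960992) fell from 19.7 and 22.5 to 3.69 and 7.31 (-1.82 ± 0.32, adjusted p = 0.000181). With 6 and 11 SgshKO reads, it may be listed only through WT. A peak 35386 bp upstream (chr19:9945068-9945361) went the other way, from 6.22 and 7.16 to 14.8 and 18.6 (1.20 ± 0.31, adjusted p = 0.00719), and lost its call without WT replicate 1 (adjusted p = 0.0571).

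A pair of high Olig2+ peaks, singled out after their values were seen, fell by less: 396 and 413 against 282 and 304 normalized tags 39533 bp upstream (log2 difference -0.47 ± 0.07) and 305 and 259 against 188 and 175 26026 bp upstream (-0.63 ± 0.09). Summed over the 43 peaks the signal was 1781 and 1821 in WT and 1374 and 1413 in SgshKO. Of these 43 peaks 27 were intergenic and 10 lay inside a neighbouring gene. Summed tags near oligodendrocyte markers moved the same way in Olig2+ nuclei, 2645 and 2627 in WT against 1988 and 2029 in SgshKO, while those near precursor markers were 522 and 525 against 580 and 553; their part in the Fth1 result was not tested.

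In NeuN+ nuclei the Fth1 start-site peak (chr19:9982490-9982721) fell from 131 and 120 to 85.9 and 75.6 normalized tags (log2 difference -0.63 ± 0.12, adjusted p = 0.00128), and a peak in intron 6 of 11 of the neighbour Best1 (chr19:9991410-9991622) fell from 14.7 and 20.3 to 8.38 and 10.8 (-0.80 ± 0.29, adjusted p = 0.0434). The start-site difference was -0.08 after quantile normalization (adjusted p = 0.604) and not called by DESeq2 (adjusted p = 0.234). The Best1 one was called neither by edgeR nor by DESeq2, nor without any 1 of the 4 libraries, nor under the 3 other scalings (adjusted p from 0.0793 to 0.601). In microglia the start-site peak (chr19:9982425-9982656) held 182 and 168 normalized tags (WT) against 250.2 and 304.5 (SgshKO). The groups did not overlap, and the log2 difference of 0.66 ± 0.27 missed the threshold (adjusted p = 0.137), which it passed with edgeR (adjusted p = 0.0281) and median-of-ratios scaling (adjusted p = 0.0490).

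Ftl1, the ferritin light chain, had its highest start-site peak in Olig2+ nuclei (chr7:45459848-45460054), where 471 and 421 normalized tags in WT stood against 390 and 352 in SgshKO, a log2 difference of -0.27 ± 0.07 (adjusted p = 0.00933). In NeuN+ nuclei (chr7:45459832-45460051) it fell from 147 and 128 to 88.0 and 96.5 (-0.57 ± 0.12, adjusted p = 0.00200). In microglia (chr7:45459742-45460092) it held 249 and 181 in WT and 286 and 377 in SgshKO, without overlap and without a call (0.63 ± 0.27, adjusted p = 0.159); edgeR called it (adjusted p = 0.0397). The Olig2+ call was lost with DESeq2 (adjusted p = 0.263), without WT replicate 1 (0.211) and without SgshKO replicate 2 (0.0709). The NeuN+ decrease shrank to -0.02 after quantile normalization (adjusted p = 0.925), to -0.28 after scaling to tags inside peaks (0.0769), and was not called by DESeq2 (0.310) or without WT replicate 1 (0.0680). A peak in intron 3 of 3 of Ftl1 rose in NeuN+ nuclei, from 3.40 and 1.69 to 5.58 and 8.25 normalized tags (1.18 ± 0.41, adjusted p = 0.0367), and one in intron 12 of 15 of the neighbour Gys1 fell, from 44.2 and 36.7 to 25.1 and 29.2 (-0.55 ± 0.20, adjusted p = 0.0420). The Ftl1 intron peak held 6 and 3 reads in WT and 8 and 13 in SgshKO, so it may be listed only through SgshKO. Of the Ftl1 peaks 6 of 9 (microglia), 7 of 11 (NeuN+) and 5 of 11 (Olig2+) lie inside the neighbours Gys1 or Bax. Both ferritin genes have near-identical processed copies elsewhere in the genome, and how multiply mapped reads were handled is not given in the sources used here.

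Slc40a1 encodes ferroportin, the iron exporter. It had 11 microglia peaks, 1 NeuN+ peak and 0 Olig2+ peaks. The single NeuN+ peak, at the start site (chr1:45925542-45925766), fell from 46.5 and 45.2 to 26.5 and 15.2 normalized tags, a log2 difference of -1.15 ± 0.23 (adjusted p = 0.00159) against a median of -0.53 over all NeuN+ start-site peaks. It stayed called after the other scalings (-0.86 to -0.94) and with edgeR, but not with DESeq2 (adjusted p = 0.123). In microglia the start-site peak (chr1:45925531-45925741) held 93.3 and 98.3 in WT and 105 and 98.4 in SgshKO, a log2 difference of 0.08 ± 0.30 that was smaller than its error (adjusted p = 0.907). The other 10 microglia peaks had log2 differences below 0, from -0.03 to -1.14, and none was called. The lowest value was at a peak 248 bp into the gene in its 5' UTR, which held 13.8 and 16.1 normalized tags in WT and 5.19 and 7.43 in SgshKO (adjusted p = 0.163).

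Tfrc, the transferrin receptor through which most cells take up iron, had the largest start-site difference of the 10 genes in microglia. The peak (chr16:32608811-32609087, centre 53 bp inside the gene) rose from 187 and 159 normalized tags in WT to 487 and 345 in SgshKO, a log2 difference of 1.24 ± 0.27 (adjusted p = 0.00254). Both SgshKO libraries lay well above both WT libraries. A peak in the 5' UTR, centred 220 bp past another annotated start at chr16:32609122, held 73.5 and 61.0 in WT and 66.7 and 31.6 in SgshKO. Those groups overlapped. In NeuN+ nuclei the start-site peak (chr16:32608774-32608995) fell from 135 and 124 to 94.9 and 99.1 (-0.42 ± 0.12, adjusted p = 0.0123), and in Olig2+ nuclei (chr16:32608797-32609018) 96.0 and 74.2 against 72.6 and 77.1 overlapped (-0.17 ± 0.15, adjusted p = 0.423).

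The microglia call at Tfrc held under the other scalings (0.83 after quantile normalization to 1.30 by median of ratios) and with edgeR and DESeq2, and was lost without WT replicate 1 (log2 difference 1.36, adjusted p = 0.0810) or WT replicate 2 (1.13, adjusted p = 0.340). The NeuN+ decrease was not called by edgeR or DESeq2 (adjusted p = 0.192 and 0.642), nor after 3 other scalings, nor without any 1 of the 4 libraries, and turned to 0.14 after quantile normalization (adjusted p = 0.321).

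**Figure D5:**
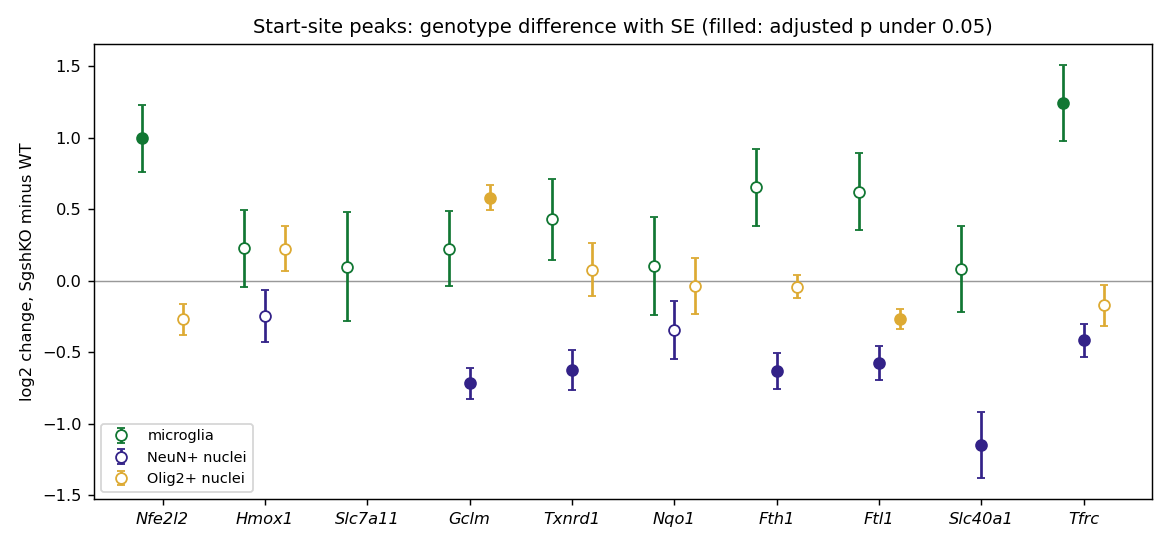
Genotype difference (log2, SgshKO minus WT) with its standard error at the start-site peak of each gene in each sort; filled points are called at a limma adjusted p under 0.05. All 10 microglia points lie above 0 (0.08 to 1.24), all 8 NeuN+ points below 0 (-0.25 to -1.15), and the 8 Olig2+ points lie between -0.27 and 0.58. The medians over all peaks within 1000 bp of a start site, a set not limited to the nearest peak of each gene, are 0.03, -0.53 and 0.05 in these sorts.

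Across the 10 start-site peaks the microglia differences had a median of 0.33, against 0.03 over all microglia peaks within 1000 bp of a start site, and 2 of 10 were called. The 8 NeuN+ differences had a median of -0.60, against -0.53, and 6 were called. The 8 Olig2+ differences had a median of -0.04, against 0.05, with 1 called in each direction. These member medians take 1 peak per gene, whereas the values beside them take every peak within 1000 bp. Over every member peak within 1000 bp the medians were 0.10 in microglia (21 peaks), -0.49 in NeuN+ nuclei (13) and -0.17 in Olig2+ nuclei (17). Under other scalings some small differences changed sign: in microglia those of Hmox1, Gclm and Slc40a1 were below 0 after quantile normalization, and those of Slc7a11, Nqo1 and Slc40a1 after scaling to tags inside peaks; in NeuN+ nuclei that of Hmox1 was above 0 after both, and that of Tfrc after quantile normalization. Summed tags near neuronal markers in NeuN+ nuclei came to 600 and 538 for WT and 300 and 317 for SgshKO, and those near the oligodendrocyte markers with a peak (3 of 6) were 144 and 128 against 68.4 and 69.8; their part in the NeuN+ decreases was not tested.

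A list of 60 other genes of the pathways gave the setting of the members. In microglia 36 of their 339 peaks were higher and 2 lower, 11.2% in all against 7.37% of all microglia peaks, with a median log2 difference of 0.13. Of the 36, 17 belonged to Bach1, Cul3, Maff, Mafg, Mafk and Sqstm1, 6 of the 7 genes listed for the control of NRF2, which had 93 peaks in all. Of all microglia peaks 5.05% were higher. The other groups of the list had 4 of 65 (glutathione), 1 of 16 (thioredoxin) and 4 of 30 (NADPH) higher. Detoxification genes had 5 of 43 and iron genes 5 of 92. Mafk, a small MAF partner of NRF2, rose at its start site (chr5:139791283-139791510) from 149 and 152 to 440 and 535 normalized tags (log2 difference 1.68 ± 0.26, adjusted p = 4.75e-05). Gpx4, the peroxidase that removes lipid peroxides, rose at its start site (chr10:80053385-80053738) from 314 and 289 to 921 and 921 (1.61 ± 0.24, adjusted p = 2.62e-05). The smallest adjusted p of the increases was in intron 9 of 16 of Slc11a2, a divalent metal transporter (chr15:100403407-100403622), from 7.78 and 10.2 to 92.6 and 67.8 (3.02 ± 0.41, adjusted p = 5.1e-06). With 9 and 12 WT reads, this Slc11a2 peak may be listed only through SgshKO. Peaks of the 2 decreases, with 0 and 1 SgshKO reads at Bach1 and 6 and 6 at Ephx1, may be listed only through WT. The 2 decreases were 53224 bp upstream of Bach1, from 7.78 and 11.0 to 0 and 0.93 (-2.89 ± 0.59), and 29650 bp to the downstream side of Ephx1, from 21.6 and 22.9 to 5.19 and 5.57 (-1.87 ± 0.48); both lost their call without either WT library. Without WT replicate 1 and WT replicate 2 the microglia list had 10 and 6 calls, all higher; scaling to tags inside peaks gave 34 higher and 17 lower.

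In NeuN+ nuclei 14 of 230 peaks of the list were higher and 66 lower, 34.8% in all against 29.8% of all NeuN+ peaks, and near start sites 42 of 87, or 48.3%, were lower against 44.9% of all start-site peaks. The start-site peak of Bach1 fell from 168 and 160 to 71.9 and 85.7 normalized tags (log2 difference -1.05 ± 0.12, adjusted p = 9.55e-06). That of Txn1, thioredoxin, fell from 368 and 328 to 219 and 215 (-0.67 ± 0.08), and that of Pgd, an enzyme of NADPH supply, from 153 and 162 to 86.6 and 84.4 (-0.87 ± 0.11). After quantile normalization Txn1 and Pgd were no longer called (-0.11 and -0.31, adjusted p = 0.226 and 0.0681). Increases were distal, as at 40062 bp upstream of Aco1, an iron sensor, from 10.8 and 8.47 to 42.6 and 38.7 (1.98 ± 0.24), and at 49880 bp upstream of Cul3, from 5.10 and 5.08 to 19.5 and 31.8 (2.09 ± 0.31). With 9 and 9 WT reads, the Cul3 peak may be listed only through SgshKO. Both Aco1 and Cul3 also had called decreases at other NeuN+ peaks. The split was 21 higher and 32 lower after scaling to tags inside peaks and 11 and 18 after quantile normalization, and limma made 0 calls without either SgshKO library, as in the whole table.

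In Olig2+ nuclei 19 of 286 peaks of the list were higher and 27 lower, 16.1% in all against 19.8% of all Olig2+ peaks. A peak 14288 bp to the downstream side of Keap1, the NRF2 repressor, rose from 0.52 and 4.09 to 11.7 and 10.6 normalized tags (log2 difference 2.13 ± 0.44, adjusted p = 0.00105). That was 1 and 8 reads in WT against 19 and 16 in SgshKO, so the peak may be listed only through SgshKO. Gclc, the catalytic partner of Gclm, had a peak 3701 bp upstream that rose from 85.1 and 62.9 to 104 and 130 (0.66 ± 0.15, adjusted p = 0.00181). Both Keap1 and Gclc also had called decreases at other Olig2+ peaks. An intronic peak of Hfe, a regulator of iron uptake, fell from 19.7 and 9.72 to 1.23 and 1.99 (-2.53 ± 0.40, adjusted p = 3.75e-05), and one of Abcc1, which exports glutathione conjugates, from 16.6 and 13.8 to 2.46 and 2.66 (-2.18 ± 0.36, adjusted p = 5.92e-05). With 2 and 3 SgshKO reads at Hfe and 4 and 4 at Abcc1, both peaks may be listed only through WT. Of the 44 peaks of the 6 NADPH genes 0 were higher and 7 lower, where 8.17% and 11.7% of all Olig2+ peaks were. The other groups had 4 higher and 4 lower of 46 (NRF2 control), 8 and 6 of 71 (glutathione) and 2 and 1 of 10 (thioredoxin). Detoxification genes had 0 and 2 of 23 and iron genes 5 and 7 of 92. Without WT replicate 1 the Keap1 and Hfe calls were lost (adjusted p = 0.0749 and 0.100), and without WT replicate 2 the Gclc one (0.111); the list then had 13 and 14 calls.

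Whether the genotype difference itself differed between sorts was tested on the 16761 peaks that matched one to one in the 3 tables (reciprocal overlap of 50%), of which 13 were member peaks, in 1 limma model of the 12 libraries. The difference in microglia exceeded that in NeuN+ nuclei at 5 member peaks, the start-site peaks of Fth1, Ftl1, Gclm, Tfrc and Txnrd1, where 40.8% of all shared peaks did so. It exceeded that in Olig2+ nuclei at 3, Fth1, Ftl1 and Tfrc, against 17.6%. The difference in NeuN+ nuclei was below that in Olig2+ nuclei at 2, Fth1 and Gclm, against 30.8%. Tfrc had the largest such values: its log2 difference in microglia exceeded that in NeuN+ nuclei by 1.66 ± 0.24 and that in Olig2+ nuclei by 1.42 ± 0.24, and Gclm in NeuN+ nuclei was below Olig2+ nuclei by -1.30 ± 0.19. After scaling to tags inside peaks Tfrc still differed in both contrasts (1.16 and 1.19, adjusted p = 0.000415 and 0.000888) and Gclm in its own (-1.02, adjusted p = 0.00489), as did Fth1 in microglia against NeuN+ nuclei (0.78, adjusted p = 0.0166). The other 6 calls were lost under that scaling: Gclm, Ftl1 and Txnrd1 in microglia against NeuN+ nuclei (0.44, 0.69 and 0.55), Fth1 and Ftl1 in microglia against Olig2+ nuclei (0.47 and 0.66) and Fth1 in NeuN+ against Olig2+ nuclei (-0.31), with adjusted p from 0.0533 to 0.366. After quantile normalization none of the 5 differences between microglia and NeuN+ nuclei was called: they were 0.15 at Fth1, 0.0016 at Ftl1, -0.24 at Gclm, 0.45 at Tfrc and 0.04 at Txnrd1 (adjusted p from 0.127 to 0.996), and Hmox1 was called lower in microglia instead (-0.66, adjusted p = 0.0340). Against Olig2+ nuclei Tfrc stayed called (0.80, adjusted p = 0.00852) and Fth1 and Ftl1 did not (0.21 and 0.34), while Gclm was called lower in microglia (-0.85, adjusted p = 0.000882), as it was after scaling to tags inside peaks (-0.58, adjusted p = 0.0499). Gclm in NeuN+ against Olig2+ nuclei stayed called (-0.61, adjusted p = 0.0228), and Fth1 turned to 0.06. Scaling to tags inside peaks moved the median of all shared peaks from 0.60 to 0.12 for microglia against NeuN+ nuclei and from -0.50 to -0.23 for NeuN+ against Olig2+ nuclei. Neither Nfe2l2 nor Slc40a1 nor Slc7a11 had a peak that matched across all 3 tables. Contrasts of microglia with nuclei also set live cells against fixed nuclei, which cannot be told apart from cell type.

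The WT libraries gave the level of the 13 shared peaks in each sort. Where microglia are compared with nuclei, cell type and preparation (live cells or fixed nuclei) cannot be told apart. In microglia 10 were higher and 1 lower than in NeuN+ nuclei, against 46.5% and 19.3% of all shared peaks, and 8 were higher and 4 lower than in Olig2+ nuclei, against 42.7% and 24.5%. In NeuN+ nuclei 2 were higher and 5 lower than in Olig2+ nuclei, against 19.1% and 30.4%. The start-site peaks of the ferritin genes were highest in Olig2+ nuclei: for Ftl1 the log2 difference was -1.69 ± 0.16 in NeuN+ nuclei and -1.06 ± 0.16 in microglia relative to Olig2+ nuclei, and for Fth1 it was -1.14 ± 0.14 and -0.66 ± 0.14, all 4 called under the other scalings too. Txnrd1 and Tfrc were lowest in Olig2+ nuclei: microglia were higher by 1.40 ± 0.19 and 1.02 ± 0.17 and NeuN+ nuclei by 0.79 ± 0.19 and 0.61 ± 0.17, although Tfrc in microglia lost its call after scaling to tags inside peaks (0.32, adjusted p = 0.0655). For Gclm and Nqo1 the NeuN+ and Olig2+ levels did not differ beyond the spread (log2 differences -0.07 ± 0.14 and -0.05 ± 0.23, adjusted p = 0.696 and 0.883), although Gclm was called after quantile normalization (0.29, adjusted p = 0.0420), and for Hmox1 they missed the threshold (-0.34 ± 0.17, adjusted p = 0.0943).

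The order of microglia and NeuN+ nuclei depends on the scaling. After quantile normalization the WT differences of microglia and NeuN+ nuclei were 0.19 at Fth1, 0.21 at Gclm, 0.11 at Tfrc, 0.27 at Txnrd1 and 0.17 at Nqo1, none of them called (adjusted p from 0.111 to 0.522), and 0.36 at Ftl1, still called (adjusted p = 0.0271). Scaling to tags inside peaks moved the median of all shared peaks from 0.47 to -0.49 for this pair of sorts, and turned Fth1 from 0.48 to -0.50, Ftl1 from 0.62 to -0.35, Gclm from 0.48 to -0.50, Tfrc from 0.41 to -0.57, Txnrd1 from 0.60 to -0.37 and Nqo1 from 0.77 to -0.20. Only Hmox1 among the start-site peaks stayed higher in microglia than in NeuN+ nuclei and called under that scaling, quantile normalization and the deposited one. Of the 237 member peaks 15 in each table overlapped both other tables by at least 1 bp, and 67 of 107 microglia, 23 of 51 NeuN+ and 37 of 79 Olig2+ peaks overlapped none. In that order, the shares overlapping none were 62.6%, 45.1% and 46.8%, against 60.2%, 59.9% and 51.2% of all peaks. The shares overlapping both were 14.0%, 29.4% and 19.0%, against 22.8%, 19.5% and 25.3% of all peaks.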

How the data were processed

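ATAC-seq was read in 12 libraries of 3 sorts. Per the submitters' processing notes, Bowtie2, HOMER and the mm10 build were used; for versions and the handling of multiply mapped reads, nothing was stated in the sources. The signal is HOMER's tag count per peak as deposited by the authors, scaled to 10000000 tags per library, on peaks named in the file headers as merged IDR peaks of each sort. Whole reads were recovered for all values (tolerance 0.01), which let count models run as alternatives. The peak score that the authors deposited, 540 to 1000, entered no test.

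Peaks were taken by the deposited nearest gene name. Genotypes were compared within each table with limma 3.58.1 in R 4.3.3 (lmFit, eBayes with trend) on log2(normalized tags + 1), with Benjamini-Hochberg adjustment over all peaks of the table and calls at 0.05, without a replicate block. All adjusted p-values are limma's unless another tool is named. Sorts were compared in 1 limma model of peaks matched with bedtools 2.31.1. Alternatives were pseudocounts of 0.5 and 5, the lowest 25% of peaks left out, 3 other scalings, edgeR 4.0.16 (TMM, quasi-likelihood), DESeq2 1.42.0, a replicate block, a reciprocal overlap of 25% and each library left out. Scripts were tested on simulated data. Tables were handled with Python 3.11.15 and pandas 2.3.3.

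Members and lists were chosen with earlier results of these data known. Named peaks are, per gene and sort, the peak nearest the start site within 1000 bp, up to 4 of the largest called changes in each direction, the highest member peak, up to 3 peaks of the pathway list with the smallest p per direction (1 per gene) and up to 3 per contrast between sorts; other peaks named with values were picked after those were seen. With n = 2 the precision is limited, and errors cover only the spread between these libraries.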

Additional observations from a re-analysis of the deposited data

Results flagged for a closer look

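The genotype difference (log2, SgshKO minus WT) differed between sorts by the interaction term of the limma model at these start-site peaks. Microglia exceeded NeuN+ nuclei by 1.29 at Fth1, 1.20 at Ftl1, 0.94 at Gclm, 1.66 at Tfrc and 1.05 at Txnrd1, where the median over all shared peaks was 0.60. After quantile normalization these were 0.15, 0.0016, -0.24, 0.45 and 0.04, with none called. Microglia exceeded Olig2+ nuclei by 0.70 at Fth1, 0.89 at Ftl1 and 1.42 at Tfrc (0.21, 0.34 and 0.80 after quantile normalization, with only Tfrc called). The value in NeuN+ nuclei relative to Olig2+ nuclei was -0.59 at Fth1 and -1.30 at Gclm (0.06 and -0.61, with only Gclm called).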

How the results depend on the processing

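In microglia the count of called member peaks moved from 5 to 3 with DESeq2, 13 with edgeR, 3 with the lowest 25% of peaks left out, 8 with median-of-ratios scaling, 8 with quantile normalization and 10 with the replicate block; leaving out a library gave 0 to 13. The microglia pathway list went from 38 to 64 with edgeR and 63 with the block, and 6 to 74 without a library. In NeuN+ nuclei 14 member calls became 2 with DESeq2, 6 with quantile normalization and 9 with scaling to tags inside peaks, and 0 to 7 without a library; the list's 80 became 11, 29 and 53, and 0 to 41. In Olig2+ nuclei 19 became 5 with DESeq2, which gave an adjusted p for 31 of the 79 peaks, and 7 to 18 without a library; the list's 46 became 8, and 13 to 42. The cause of these shifts was not tested.

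Between sorts, genotype differences of microglia against NeuN+ nuclei gave 1 call with quantile normalization, Hmox1 lower in place of the 5 higher, and 2 higher with scaling to tags inside peaks (5 to 6 without a library), NeuN+ against Olig2+ nuclei 1 and 1, both lower (1 to 3), and microglia against Olig2+ nuclei 2 to 3 without a library. WT levels of microglia against NeuN+ nuclei gave 5 and 6 (6 to 12), microglia against Olig2+ nuclei 9 to 12 and NeuN+ against Olig2+ nuclei 4 to 7.

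Signs turned at these start-site peaks, of which Tfrc in NeuN+ nuclei and the Fth1 and Gclm contrasts had been called. Quantile normalization gave -0.16 at Hmox1, -0.20 at Gclm and -0.070 at Slc40a1 in microglia, 0.018 at Hmox1 and 0.14 at Tfrc in NeuN+ nuclei, 0.033 at Nqo1 in Olig2+ nuclei, 0.061 for the Fth1 contrast of NeuN+ and Olig2+ nuclei and -0.24 for the Gclm contrast of microglia and NeuN+ nuclei. Scaling to tags inside peaks gave -0.10 at Slc7a11, -0.099 at Nqo1 and -0.12 at Slc40a1 in microglia and 0.045 at Hmox1 in NeuN+ nuclei. DESeq2, edgeR and median of ratios gave 0.032, 0.030 and 0.031 at Nqo1 and 0.027, 0.026 and 0.027 at Fth1 in Olig2+ nuclei. Without a library, microglia ranged from -0.14 to 0.34 at Slc7a11 and -0.13 to 0.34 at Nqo1, and Olig2+ nuclei from -0.16 to 0.31 at Txnrd1, -0.089 to 0.020 at Nqo1, -0.086 to 0.0054 at Fth1 and -0.36 to 0.012 at Tfrc.

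Replicate numbers were not shown to pair the libraries: deviations of same-numbered libraries correlated at 0.042 (microglia), 0.0036 (NeuN+) and 0.00069 (Olig2+). With the block, the microglia start-site peaks of Fth1 and Ftl1 were also called (adjusted p = 0.0183 and 0.0206), and no other named peak changed its call. With 2 libraries per group and 17 to 39 reads at the median peak, small differences at low peaks were not detectable.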
